A study of Mus musculus with 12 samples.

Results

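The genes described here encode the constitutive subunits of the proteasome. They were chosen by name, as the protein-coding genes called Psma, Psmb, Psmc or Psmd and a number in the tables of both experimental settings, without the interferon-inducible subunits Psmb8, Psmb9 and Psmb10. The rule took 35 of the 20187 genes that both tables list, 15 of the core particle (7 Psma and 8 Psmb genes) and 20 of the regulatory particle (6 Psmc and 14 Psmd genes). Psmb11, the core subunit of the thymus, had 0 to 3 counts in every library and was not tested, which left 14 core and 20 regulatory members. Psma8, the testis form of an alpha subunit, was listed in the in vivo table with 2, 0 and 0 counts in old mice and 7, 1 and 1 in young mice.

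All 12 libraries come from 4T1, an established mouse mammary carcinoma line, in 4 groups of 3. For the groups in vivo old and in vivo young, Balb/c mice of the labelled age received 5000 4T1 cells that express mNeonGreen through the tail vein, and after 4 weeks a cell sorter collected 100000 of them per sample out of lung tissue. For the groups in vitro old IFE and in vitro young IFE, cultured 4T1 cells spent 72 h without serum in medium with 25% interstitial fluid extract (IFE) from lungs of old or young mice that carried 4T1 metastases. The labels give no age in weeks and do not say whether replicates are separate mice or cultures, so p-values measure the spread between these libraries, which may be technical. No group of cells in plain medium was analysed here, so the culture groups share the extract itself, and the tag shNT in the titles of these libraries is unexplained.

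Depth ran from 11679046 to 15053144 counts among the mouse libraries and from 12299004 to 18129164 among the culture libraries. The tested members had 283 to 4380 counts per library in the core and 225 to 5737 in the regulatory particle, and their within-group coefficient of variation had a median of 2.39% to 4.03% over the groups and classes. The sorted libraries carried epithelial carcinoma markers (6 of 6 detected, summed level 3850 to 3945 CPM, counts scaled to library size, in old mice and 3059 to 3199 CPM in young mice). They also carried all 12 macrophage and monocyte markers, with summed levels of 191 to 206 CPM in old mice and 1352 to 1397 CPM in young mice, and 12 of the 12 fell in old mice. Alveolar and airway markers summed to 79.8 to 89.5 CPM in old mice and 27.8 to 30.2 CPM in young mice. Mean sums in old and young mice were 325 and 278 CPM for fibroblast, 306 and 1975 for class II and 46.7 and 46.5 for neutrophil markers. They were 22.9 and 18.5 CPM for endothelium, 1.65 and 2.32 for T and NK cells, and 1.78 and 3.84 for B and plasma cells. Over all genes tested, 19.6% were called higher in old mice and 20.4% lower (adjusted p under 0.05, edgeR). By this call 5 carcinoma markers rose and 1 fell, 6 alveolar and airway markers rose, and 3 fibroblast markers rose and 2 fell. All 4 class II markers and 1 B and plasma marker fell, 1 endothelial marker rose, and 0 neutrophil or T and NK markers were called. None of these markers that the in vivo table lists was at 0 throughout an in vivo group, and their part in the results below was not tested. In bulk RNA, fewer cells of a type and less RNA per cell cannot be told apart.

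The proteasome degrades proteins that carry ubiquitin chains. Its core particle is a barrel of stacked rings, with alpha subunits (Psma) in the outer rings that gate the entrance and beta subunits (Psmb) in the inner rings, of which Psmb5, Psmb6 and Psmb7 cut peptide bonds. The regulatory particle has a base, in which the ATPases Psmc1 to Psmc6 unfold substrates, and a lid, in which Psmd14 removes ubiquitin. Interferon induces Psmb8, Psmb9 and Psmb10, which replace Psmb5, Psmb6 and Psmb7 in new cores and make the immunoproteasome. The transcription factor encoded by Nfe2l1 raises the subunit genes as a group when proteasome activity is short, through antioxidant response elements in their promoters.

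The promoters of the members are shown first because such elements are a known route of shared control of these genes. Whether they act in these data was not tested. RefSeq promoters (GRCm38.p6, the 250 bases before the transcription start) were at hand for 29 members, 12 core and 17 regulatory. The core letters of an antioxidant response element, TGACNNNGC, searched on both strands, occurred in 5 of them (17.2%), against 11.5% of the 27025 genes in the table and 10.2% of its 32851 promoters. The 5 were Psmb5, Psmb6, Psmc6, Psmd9 and Psmd12. The box CCAAT, on either strand, occurred in 12 of the 29 (41.4%), 7 of 12 in the core and 5 of 17 in the regulatory particle, against 37.5% of all genes and 33.8% of all promoters. The matches of the 2 motifs overlapped in 48 of all promoters. In the sequences below, capitals mark the element (CCAAT in Psmb3, TGACNNNGC or its reverse complement in the others). Psmb3 is included as the member with the largest change between old and young mice.

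Psmb3 (chr11:97703184-97703433, plus strand): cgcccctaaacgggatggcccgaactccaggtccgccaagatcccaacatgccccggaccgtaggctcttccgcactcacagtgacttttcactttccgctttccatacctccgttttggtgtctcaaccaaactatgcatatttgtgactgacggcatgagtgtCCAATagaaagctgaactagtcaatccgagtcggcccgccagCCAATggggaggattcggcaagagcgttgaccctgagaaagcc

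Psmb5 (chr14:54617996-54618245, minus strand): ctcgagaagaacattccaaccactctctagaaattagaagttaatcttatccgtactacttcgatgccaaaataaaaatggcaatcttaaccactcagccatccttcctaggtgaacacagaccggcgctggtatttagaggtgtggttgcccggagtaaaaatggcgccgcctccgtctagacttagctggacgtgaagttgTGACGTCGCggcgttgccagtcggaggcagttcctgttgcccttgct

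Psmb6 (chr11:70525107-70525356, plus strand): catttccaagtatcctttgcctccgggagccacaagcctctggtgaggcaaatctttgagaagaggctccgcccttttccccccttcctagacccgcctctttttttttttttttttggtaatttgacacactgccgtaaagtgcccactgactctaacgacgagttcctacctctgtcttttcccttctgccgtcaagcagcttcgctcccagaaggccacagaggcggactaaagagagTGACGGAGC

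Psmc6 (chr14:45329574-45329823, plus strand): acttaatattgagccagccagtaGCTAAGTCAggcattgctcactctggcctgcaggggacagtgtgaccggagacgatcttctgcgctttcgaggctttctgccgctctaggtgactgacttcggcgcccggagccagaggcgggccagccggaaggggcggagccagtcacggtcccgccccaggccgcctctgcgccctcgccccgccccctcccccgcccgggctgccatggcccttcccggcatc

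Psmd9 (chr5:123227940-123228189, plus strand): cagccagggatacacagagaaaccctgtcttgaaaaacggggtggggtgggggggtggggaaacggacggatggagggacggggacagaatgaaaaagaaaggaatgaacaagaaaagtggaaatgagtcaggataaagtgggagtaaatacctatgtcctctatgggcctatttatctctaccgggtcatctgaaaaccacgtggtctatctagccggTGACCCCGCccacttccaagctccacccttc

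Psmd12 (chr11:107479278-107479527, plus strand): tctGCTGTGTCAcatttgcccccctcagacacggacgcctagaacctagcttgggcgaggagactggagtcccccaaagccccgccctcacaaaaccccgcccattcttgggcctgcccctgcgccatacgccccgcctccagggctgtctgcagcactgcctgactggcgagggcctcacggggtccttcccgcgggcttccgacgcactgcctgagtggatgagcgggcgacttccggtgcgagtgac

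The Psmb6 element ends at the last base before the start, those of Psmb5 and Psmd9 begin 47 and 31 bases before it, and those of Psmc6 and Psmd12 lie near the far end of the window on the other strand. Psmb3 holds CCAAT at 2 places. A match of letters is a description and not evidence of binding.

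The members spanned a wide range of levels, which were compared between genes by the authors' FPKM, a value per listed gene length. The length listed was 1234 bases for Psma6, 3673 for Psma2, 899 for Psmb5, 3421 for Psmb7 and 7248 for Psmd9. Differences in FPKM between genes therefore depend on these lengths. The FPKM tables were made separately for each setting. In the core, the alpha subunit Psma6 was highest in all 4 groups, with 139 ± 2.50 FPKM in old mice, 133 ± 6.92 in young mice, 172 ± 10.0 in old IFE and 177 ± 2.77 in young IFE (SD, n = 3 each). The alpha subunit Psma2 was lowest, with 18.8 ± 0.35 FPKM in old mice, 18.2 ± 1.43 in young mice, 19.1 ± 1.34 in old IFE and 19.8 ± 0.53 in young IFE. Subunits that assemble in equal number thus differed 7.40-fold in FPKM in old mice, 7.30-fold in young mice, 9.01-fold in old IFE and 8.92-fold in young IFE. Among the catalytic genes in old mice, Psmb6 stood at 38.6 ± 0.80 FPKM, Psmb5 at 24.9 ± 1.47 and Psmb7 at 24.7 ± 0.55. The last 2 did not differ in FPKM beyond their spread. In CPM, given below and not divided by length, Psmb7 was above Psmb5 in each library of old mice.

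In the regulatory particle the highest level in vivo belonged to Psmd2, a scaffold of the base, with 77.8 ± 0.95 FPKM in old mice and 78.6 ± 2.19 in young mice. In culture 2 ATPases were above it, Psmc5 with 136 ± 2.29 FPKM in old IFE and 138 ± 2.96 in young IFE, and Psmc1 with 133 ± 3.98 in old IFE and 138 ± 2.68 in young IFE. These 2 did not differ from each other beyond their spread. The lowest by FPKM was Psmd9, an assembly chaperone that leaves the finished particle, with 4.38 ± 0.17 FPKM in old mice, 3.66 ± 0.38 in young mice, 4.23 ± 0.14 in old IFE and 3.84 ± 0.19 in young IFE. The 3 assembly chaperones Psmd5, Psmd9 and Psmd10 were the lowest regulatory members by FPKM in both in vivo groups. As a description, the order of levels of the 20 regulatory genes had a Spearman correlation of 0.995 between old and young mice, 0.988 between old and young IFE, and 0.818 between in vivo and in vitro at either age. For the 14 core genes these values were 0.978, 0.991, 0.943 between the young groups and 0.947 between the old groups. The genes share libraries and gene lengths, and no test is attached.

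**Figure D1:**
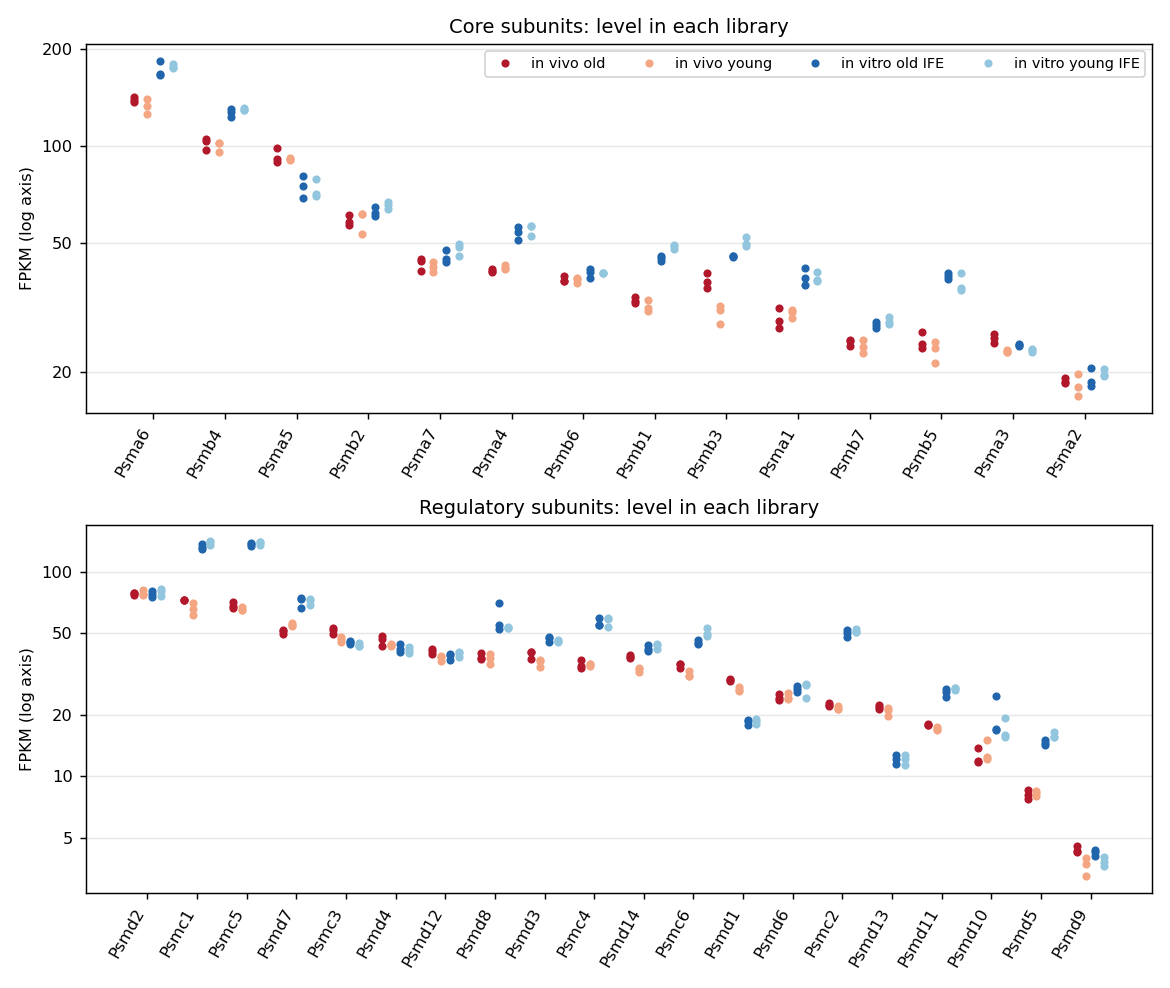
Level of each member in each library, in FPKM on a log axis, core subunits above and regulatory subunits below, ordered by the level in vivo; each point is 1 library. Psma6 is the highest core subunit and Psma2 the lowest in all 4 groups, and the ATPases Psmc1, Psmc2 and Psmc5 are higher in culture than in vivo.

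Between old and young mice, most core subunits changed little. Of 14 tested core members, 2 rose in old mice and 0 fell (call at an adjusted p under 0.05), and the groups did not overlap for those 2, with old mice above young mice. Over all 14096 genes tested, 40.0% were called, 19.6% higher and 20.4% lower, and the groups did not overlap for 47.7%, with old mice higher for 23.5%. Among the 7068 genes within the members' range of mean CPM, 48.1% were called. The core share of 14.3% was below both. The median log2 fold change was 0.04 in the core against 0.00 over all genes, with a range of -0.05 to 0.34, and the median absolute change was 0.05 in the core against 0.13 among genes of like level.

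Psmb3, a beta subunit without catalytic activity, had 93.4, 105 and 97.9 CPM in old mice, against 79.8, 82.3 and 72.5 CPM in young mice. All 3 old libraries were above all 3 young ones. The log2 fold change was 0.34 ± 0.05 (SE), or 1.26-fold (adjusted p = 9.35e-09, edgeR). Psma3, an alpha subunit, had 114, 111 and 107 CPM in old mice and 99.7, 101 and 102 CPM in young mice, again without overlap, a log2 change of 0.14 ± 0.04 (adjusted p = 0.00787, edgeR). In a test against a fold of 1.2, neither was called (adjusted p = 0.117 for Psmb3).

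The catalytic subunits did not pass the test. Psmb5, the chymotrypsin-like subunit, had 26.6, 23.9 and 24.7 CPM in old mice and 21.4, 25.0 and 23.8 CPM in young mice, and the groups overlapped (log2 change 0.10 ± 0.09, adjusted p = 0.438, edgeR). Psmb6, the caspase-like subunit, had 80.0, 83.1 and 80.0 CPM in old mice and 78.4, 81.2 and 81.4 CPM in young mice (0.01 ± 0.05, adjusted p = 0.865, edgeR). Psmb7, the trypsin-like subunit, had 92.2, 95.6 and 96.5 CPM in old mice and 87.0, 96.0 and 91.3 CPM in young mice (0.05 ± 0.05, adjusted p = 0.418, edgeR). Old and young libraries overlapped for all 3 genes.

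More regulatory members moved, by small amounts. Of 20, 8 rose in old mice (Psmd9, Psmd14, Psmd1, Psmc1, Psmc3, Psmc6, Psmd3 and Psmd12) and 1 fell (Psmd7). The groups did not overlap for 13 (65.0%, against 47.7% of all genes), 12 of them higher in old mice (60.0%, against 23.5%). The share called was 45.0%, near the 48.1% among genes of like level and the 40.0% over all genes, and the share called higher was 40.0%, against 26.1% and 19.6%. The median log2 change was 0.08 (all genes 0.00), over a range of -0.11 to 0.27. Of the 34 tested members of both classes, 32 changed by less than 0.25 on the log2 scale and 30 by less than 0.15.

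Among the base ATPases, 3 of 6 rose, where 19.6% of all genes and 26.1% of genes of like level were called higher. Psmc1 had 156, 158 and 157 CPM in old mice and 151, 133 and 142 CPM in young mice, with all old libraries above (0.15 ± 0.04, adjusted p = 0.00104, edgeR), and without young replicate 2 it was no longer called (adjusted p = 0.0530). Psmc6 had 132, 138 and 139 CPM in old mice and 128, 121 and 121 CPM in young mice, also without overlap (0.15 ± 0.04, adjusted p = 0.00202, edgeR). Psmc3 had a log2 change of 0.15 ± 0.04 (adjusted p = 0.00115, edgeR). Psmd1, a large scaffold of the base, had 244, 241 and 237 CPM in old mice, against 214, 212 and 223 CPM in young mice (0.15 ± 0.03, adjusted p = 3.10e-05, edgeR), and the groups did not overlap.

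In the lid, 3 of 8 rose and 1 fell, where 19.6% of all genes were called higher and 20.4% lower. Psmd14, the ubiquitin-removing enzyme, had 119.9, 123 and 119.9 CPM in old mice and 107, 105 and 102 CPM in young mice, with all old libraries above (0.21 ± 0.04, adjusted p = 1.78e-05, edgeR). Its partner in the same dimer, Psmd7, went the other way, with 125, 132 and 129.8 CPM in old mice and 136, 139 and 142 CPM in young mice (-0.11 ± 0.04, adjusted p = 0.0208, edgeR). The call of Psmd7 was lost without young replicate 3 (adjusted p = 0.093), without old replicate 1 (adjusted p = 0.105) and with DESeq2 (adjusted p = 0.0531). The chaperone Psmd9 had 34.4, 35.1 and 37.1 CPM in old mice and 32.2, 30.3 and 26.2 CPM in young mice (0.27 ± 0.08, adjusted p = 0.00500, edgeR). Its groups did not overlap, and without young replicate 3, the lowest library, the value was 0.18 (adjusted p = 0.102). Its call was also lost with limma on FPKM (adjusted p = 0.0634 and 0.0623 for the 2 pseudocounts).

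The summed levels followed the same small shift. The core summed to 1646 ± 14.6 CPM in old mice and 1583 ± 17.5 CPM in young mice, and the regulatory members to 2629 ± 20.3 CPM in old mice and 2490 ± 30.3 CPM in young mice (SD, n = 3 each). Of the 5 members with TGACNNNGC in the promoters shown above, 3 were called higher in old mice (Psmc6, Psmd9 and Psmd12), and the log2 changes of the 5 ran from 0.01 to 0.27. Of the 11 tested members with CCAAT, 4 were called higher. The background was 19.6% called higher over all genes and 26.1% at like level, and with so few members nothing is read from these counts.

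**Figure D2:**
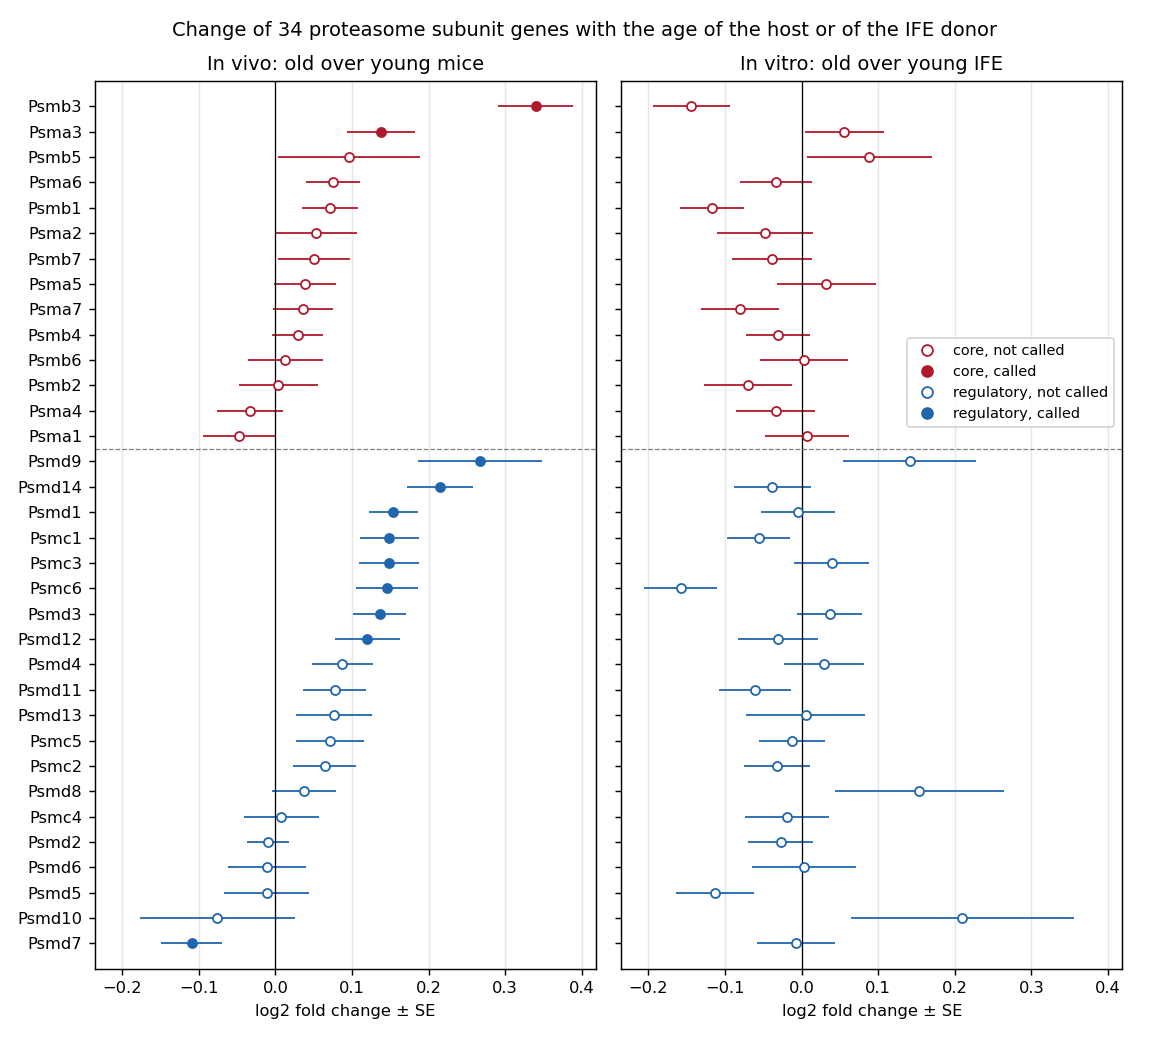
Log2 fold change (± SE) of each of the 34 tested members, old over young mice on the left and old over young IFE on the right, core in red and regulatory in blue; filled points are called. In vivo 2 core and 9 regulatory members are called, and in vitro 0 are.

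Genes of the pathway outside the membership showed larger shifts in the inducible branch. All 3 inducible core subunits fell in old mice. Psmb8 had 146.3, 145.9 and 134 CPM in old mice and 227, 232 and 234 CPM in young mice (-0.70 ± 0.04, adjusted p = 2.62e-33, edgeR). Psmb9 had 50.6, 45.2 and 41.7 CPM in old mice and 109.6, 116 and 109.0 CPM in young mice (-1.28 ± 0.05, adjusted p = 7.87e-39, edgeR). Psmb10 had 109.9, 116 and 103 CPM in old mice and 163, 170.4 and 170.4 CPM in young mice (-0.61 ± 0.04, adjusted p = 3.39e-25, edgeR). None of the 3 pairs of groups overlapped.

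The other partners were mixed. Of the 5 activator and inhibitor genes, Psme1 (-0.29 ± 0.04) and Psme2 (-0.32 ± 0.05), the interferon-responsive cap, fell, and Psme4 (0.26) and Psmf1 (0.41) rose. None of the 5 core assembly factors passed the test, Pomp among them (-0.08 ± 0.05, adjusted p = 0.199, edgeR). Of 5 further proteins bound to the regulatory particle, Adrm1, Ube3c and Usp14 rose. Of 6 genes of transcription control, Nfe2l1, Nfe2l2 (-0.29) and Syvn1 (-0.23) fell and Ngly1 (0.50) rose. Nfe2l1 itself had 430.5, 419 and 427 CPM in old mice and 448, 458 and 474 CPM in young mice, without overlap (-0.11 ± 0.03, adjusted p = 0.000141, edgeR). Of 10 ubiquitin genes and shuttle factors, 3 rose and 1 fell. Of all 34 pathway genes outside the membership, the inducible subunits included, 9 rose and 9 fell. Over all genes 19.6% were called higher and 20.4% lower. Among genes within the members' range of mean CPM, 48.1% were called in either direction. The counts of partners are given as a description.

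Each inducible subunit takes the seat of a constitutive one, so the ratio of their FPKM within a library was compared. The size of a ratio depends on the gene lengths listed, such as 899 bases for Psmb5 and 3421 for Psmb7. These lengths cancel in the difference between the ages. The ratio of Psmb8 to Psmb5 was 1.45 to 1.63 in old mice and 2.47 to 2.83 in young mice (difference of log2 ratios -0.80). That of Psmb9 to Psmb6 was 0.266 to 0.324 in old mice and 0.685 to 0.729 in young mice (-1.30). That of Psmb10 to Psmb7 was 2.14 to 2.44 in old mice and 3.56 to 3.77 in young mice (-0.67). No ratio overlapped between the ages, and the exact two-sided permutation p was 0.1 for each, the smallest that 3 against 3 libraries allow. The denominators were the catalytic members that did not pass the test, and the summed macrophage markers were also lower in all old libraries, as given above.

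**Figure D3:**
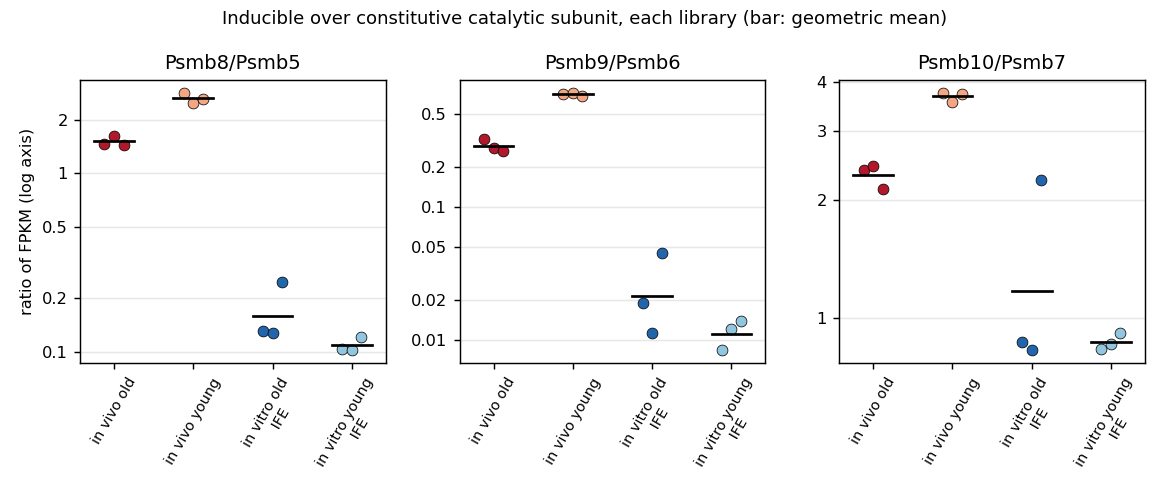
Ratio of the FPKM of each inducible catalytic subunit to that of its constitutive counterpart, on a log axis; points are libraries and the bar is the geometric mean of 3. The in vivo old libraries lie below the in vivo young ones in all 3 panels, and 1 in vitro old IFE library stands apart from the other 2.

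Between cells in old and young IFE, 0 of 14 core and 0 of 20 regulatory members were called, where 0.0839% of the 13118 genes tested were called (0.142% of genes of like level). That background rests on single libraries: 183 of 13371 genes were called without old IFE replicate 3, and 1 to 8 when any other library was left out. At an unadjusted p under 0.05 there were 2 core (Psmb3 and Psmb1) and 2 regulatory members (Psmc6 and Psmd5), all 4 lower in old IFE, 11.8% of the 34 against 7.08% of all genes. DESeq2 and limma also called 0 of the 34 members. The groups did not overlap for 3 core members, 1 higher and 2 lower, and for 3 regulatory members, 1 higher and 2 lower, against 13.1% of all genes. Median log2 changes were -0.03 in the core and -0.01 in the regulatory particle (all genes 0.01). The values ran from -0.14 to 0.09 in the core and from -0.16 to 0.21 in the regulatory particle.

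Psmb3 had the lowest p in the core, with 104.8, 105.9 and 105.5 CPM in old IFE and 114, 115 and 121 CPM in young IFE (-0.14 ± 0.05, adjusted p = 0.520, edgeR). Old IFE libraries were all below young IFE ones, the opposite of the order in mice. Psmc6 had the lowest p in the regulatory particle, with 157, 156 and 162 CPM in old IFE and 186, 175 and 169.6 CPM in young IFE (-0.16 ± 0.05, adjusted p = 0.437, edgeR). It too was lower in each old IFE library, and it was called without old IFE replicate 3 (adjusted p = 0.0366).

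Of the catalytic subunits, Psmb5 had 36.5, 35.2 and 35.8 CPM in old IFE and 32.8, 36.4 and 32.2 CPM in young IFE (0.09 ± 0.08, adjusted p = 0.874, edgeR). Psmb6 had 78.1, 77.0 and 73.0 CPM in old IFE and 76.0, 76.2 and 75.6 CPM in young IFE (0.00 ± 0.06, adjusted p = 0.996, edgeR). Psmb7 had 96.3, 94.3 and 98.1 CPM in old IFE and 98.4, 96.8 and 101 CPM in young IFE (-0.04 ± 0.05, adjusted p = 0.917, edgeR). All 3 genes overlapped between the groups. The core summed to 1709 ± 43.3 CPM in old IFE and 1759 ± 20.5 CPM in young IFE, and the regulatory members to 2914 ± 67.5 CPM in old IFE and 2943 ± 10.6 CPM in young IFE.

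Old IFE replicate 3 stood apart in several genes of the pathway. Psmb8 had 17.96, 16.9 and 33.4 CPM in old IFE and 12.9, 14.1 and 14.8 CPM in young IFE (0.71 ± 0.30, adjusted p = 0.729, edgeR), and Psmb10 had 41.8, 38.95 and 109.9 CPM in old IFE and 40.9, 41.4 and 46.1 CPM in young IFE (0.57 ± 0.50, adjusted p = 0.890, edgeR). Without that library the Psmb10 change was -0.08. Psmb9 had few counts, 52, 23 and 101 in old IFE and 19, 22 and 33 in young IFE. Among the members, Psmd8, a lid subunit, had 160.2, 169 and 214 CPM in old IFE and 162, 165 and 162 CPM in young IFE. The chaperone Psmd10 had 25.2, 24.9 and 36.2 CPM in old IFE and 23.4, 22.9 and 28.1 CPM in young IFE. In both, replicate 3 was the highest old IFE library. The ratio of Psmb8 to Psmb5 was 0.128 to 0.248 in old IFE and 0.103 to 0.122 in young IFE (difference of log2 ratios 0.55, exact permutation p = 0.1), and the difference was 0.24 without old IFE replicate 3. That of Psmb9 to Psmb6 was 0.0113 to 0.0453 in old IFE and 0.00835 to 0.0137 in young IFE (0.93, exact permutation p = 0.3), with 0.39 without old IFE replicate 3. That of Psmb10 to Psmb7 was 0.829 to 2.25 in old IFE and 0.833 to 0.914 in young IFE (0.44, exact permutation p = 0.7), and -0.03 without replicate 3. Neither of these last ratios separated the groups. None of the 34 further genes of the pathway was called in this comparison.

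Whether the change with age differed between the settings was tested as a contrast over all 12 libraries. It was positive, meaning higher in vivo than in vitro, for 2 of 14 core members (Psmb3 and Psmb1) and 3 of 20 regulatory members (Psmc6, Psmd14 and Psmc1), and negative for 0 of either class. Over all 14318 genes 17.5% were called, 9.10% in the positive direction, and 23.3% among genes of like level. In either direction the member shares of 14.3% and 15.0% were below 17.5% and 23.3%. In the positive direction alone, the same shares were near the 12.9% of genes of like level, and 9.10% of all genes were called. This direction was singled out because all called members lay there. With so few members nothing is read from these counts.

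For Psmb3 the difference was 0.48 ± 0.08 on the log2 scale (adjusted p = 2.31e-05, edgeR), with values per library as given above for each setting. For Psmc6 it was 0.30 ± 0.06 (adjusted p = 0.000969) and for Psmd14 0.25 ± 0.07 (adjusted p = 0.00803). In culture Psmd14 had 124, 116 and 118 CPM in old IFE and 119, 125 and 124 CPM in young IFE, which overlapped. These 3 were called whichever library was left out. For Psmc1 it was 0.20 ± 0.06 (adjusted p = 0.0197, edgeR), and for Psmb1, a beta subunit without catalytic activity, 0.18 ± 0.06 (adjusted p = 0.0256, edgeR). In culture Psmc1 had 255, 252 and 265 CPM in old IFE and 263, 269 and 271 CPM in young IFE, which overlapped. Psmb1 had 168, 176 and 171 CPM in old mice and 161, 159 and 171 CPM in young mice, which overlapped, and 204, 211 and 207 CPM in old IFE and 222, 226 and 227 CPM in young IFE, which did not. The calls of Psmb1 and Psmc1 were each lost in 7 of the 12 fits that left out 1 library (adjusted p up to 0.138 for Psmb1 and 0.149 for Psmc1). The inducible Psmb8 (-1.41 ± 0.30, adjusted p = 0.0142, edgeR) and Psmb9 (-2.42 ± 0.52, adjusted p = 0.0133, edgeR) differed in the negative direction. Psmb10 was not called (-1.19 ± 0.49, adjusted p = 0.149, edgeR), nor was Psme1 (-0.67 ± 0.22, adjusted p = 0.0723, edgeR). Without old IFE replicate 3 both were called, Psmb10 at -0.54 (adjusted p = 2.95e-07) and Psme1 at -0.41 (adjusted p = 4.70e-05), with Psmb8 at -1.03 and Psmb9 at -1.77. Psme1 was also called without old IFE replicate 2 (adjusted p = 0.0281) and with DESeq2 (adjusted p = 0.0314).

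**Figure D4:**
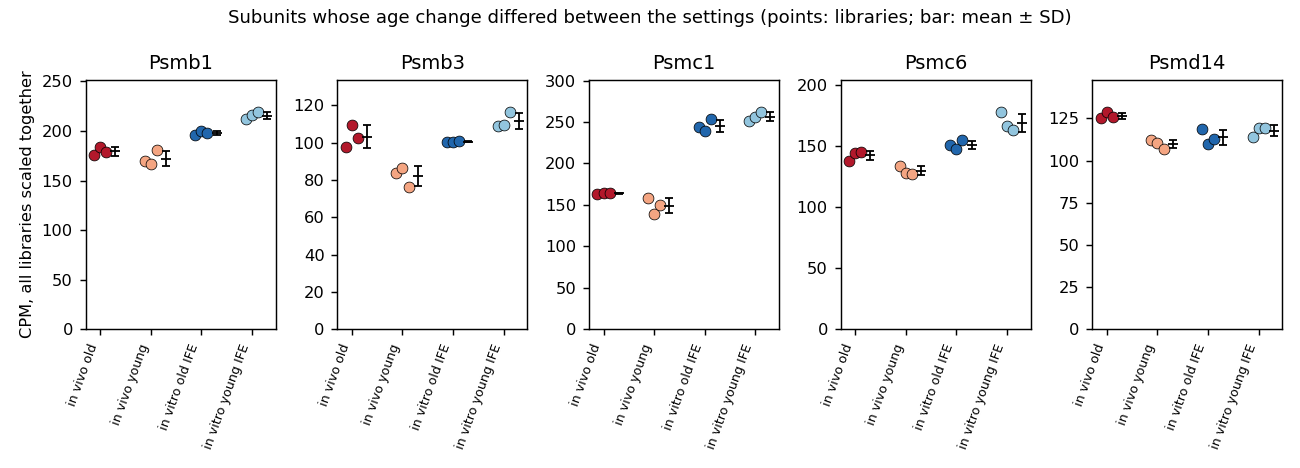
Level of the 5 members whose change with age differed between the settings, in CPM with all 12 libraries scaled together; points are libraries and bars the mean ± SD of 3. In Psmb3 and Psmc6 the old libraries are above the young ones in vivo and below them in vitro.

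The largest differences among the members lay between the settings. The labels give the setting also as the batch, and the count tables of the settings were made separately, so setting and batch cannot be told apart here. Against young IFE cultures, 6 core members were higher and 4 lower in young mice, and 8 regulatory members were higher and 7 lower. Against old IFE cultures, 6 core members were higher and 3 lower in old mice, and 9 regulatory members were higher and 9 lower. Over all genes 76.2% were called between the young groups (39.3% higher and 36.9% lower in vivo) and 74.6% between the old groups (38.6% higher and 36.1% lower in vivo), and among genes of like level 85.0% and 83.8%, so the shares of members (71.4% and 64.3% in the core, 75% and 90.0% in the regulatory particle) were of the same order. In size the members moved less than genes of like level, with a median absolute log2 difference of 0.15 in the core and 0.37 in the regulatory particle, against 0.52, between the young groups, and of 0.17 and 0.36, against 0.48, between the old groups. Called in the same direction at both ages were 6 higher and 2 lower core members and 8 higher and 6 lower regulatory members, and 0 were called in opposite directions. The same count was not made over all genes, most of which were called at each age. Nothing about the members is therefore read from it.

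The size of these differences depends on scaling. With library totals alone the median of all genes moved to -0.10 between the young groups (0.01 with TMM scaling) and to -0.12 between the old groups (0.02 with TMM scaling). The split then became 2 higher and 7 lower core members and 6 higher and 11 lower regulatory members between the young groups, and 2 and 6, and 7 and 11, between the old groups. Of all 14318 genes, 11013 were then called between the young groups and 10837 between the old groups. These were not split by direction, so the turn toward lower members is not set apart from the shift of all genes.

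The 6 ATPases were mostly lower in vivo. Between the young groups 5 were lower and 1, Psmc3, higher (median log2 difference -0.60), and between the old groups 4 were lower and 1 higher (median -0.48). Among genes of like level, 46.3% were called lower between the young groups and 45.1% between the old groups. Psmc2 had 131.0, 130.6 and 134 CPM in old mice and 125, 130.3 and 126 CPM in young mice, against 250.3, 242 and 231 CPM in old IFE and 253, 243 and 247 CPM in young IFE. All mouse libraries were below all culture libraries, and the log2 difference was -0.87 ± 0.04 between the old groups (adjusted p = 6.15e-20) and -0.96 ± 0.04 between the young groups (adjusted p = 2.21e-21, edgeR). Psmc5 had 116, 110.4 and 109 CPM in old mice and 105, 106 and 109.9 CPM in young mice, against 184, 178 and 184 CPM in old IFE and 179.9, 186 and 187 CPM in young IFE (log2 difference -0.70 ± 0.04 old and -0.78 ± 0.04 young). Psmc1 had 163, 165 and 164 CPM in old mice and 159, 139.5 and 149.6 CPM in young mice, against 244, 239 and 253 CPM in old IFE and 251, 257 and 262 CPM in young IFE (-0.58 ± 0.04 old and -0.78 ± 0.04 young). Both were lower in every mouse library. Psmc3 ran against them, with 162, 151 and 158 CPM in old mice and 138, 146 and 143 CPM in young mice, against 112, 113 and 114 CPM in old IFE and 109.0, 112 and 109.0 CPM in young IFE. It was 0.48 ± 0.05 higher between the old groups and 0.37 ± 0.05 between the young groups. With library totals alone, 5 of 6 ATPases were lower and 1 higher at both ages.

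The 3 base members that are no ATPases were all higher in vivo at both ages, and stayed so with library totals alone. Among genes of like level, 38.8% were called higher between the old groups and 38.7% between the young groups. Of the 5 further proteins bound to the regulatory particle, which are no members, 1 was higher and 3 were lower at both ages. Psmd1 had 255, 252 and 248 CPM in old mice and 225, 223 and 235 CPM in young mice, against 130.4, 124 and 131 CPM in old IFE and 129.9, 125 and 134 CPM in young IFE. The log2 difference was 0.97 ± 0.04 between the old groups (adjusted p = 2.57e-21) and 0.81 ± 0.04 between the young groups (adjusted p = 4.26e-19, edgeR). All mouse libraries were above all culture libraries. Psmd4, a ubiquitin receptor, had 159, 154 and 143 CPM in old mice and 146, 144 and 142 CPM in young mice, against 109.6, 113 and 118 CPM in old IFE and 112, 107 and 116 CPM in young IFE. It was 0.42 ± 0.05 higher between the old groups and 0.37 ± 0.05 between the young groups, and Psmd2 was 0.29 and 0.28 higher.

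Subunits of the lid differed among themselves. Psmd13, a structural lid subunit, had the largest difference of all members, with 87.6, 86.2 and 84.9 CPM in old mice and 78.0, 83.3 and 85.3 CPM in young mice, against 39.5, 36.9 and 40.8 CPM in old IFE and 39.6, 41.2 and 36.8 CPM in young IFE. Mouse and culture libraries were far apart, at 2.20-fold between the old groups (log2 1.14 ± 0.06, adjusted p = 3.21e-18) and 2.10-fold between the young groups (1.07 ± 0.06, adjusted p = 1.73e-17, edgeR). Of the 8 lid members, 4 were higher and 3 lower between the old groups, and 3 higher and 1 lower between the young groups. Over all genes 38.6% were called higher and 36.1% lower between the old groups, and 39.3% and 36.9% between the young groups. With library totals alone the majority in the lid turned, to 2 higher and 4 lower between the old groups and 2 higher and 5 lower between the young groups. Among the chaperones, Psmd5 had 65.6, 68.6 and 72.8 CPM in old mice and 69.9, 72.2 and 68.1 CPM in young mice, against 104, 98.6 and 101 CPM in old IFE and 108, 107 and 114 CPM in young IFE. It was lower in each mouse library (log2 -0.55 ± 0.05 old and -0.65 ± 0.05 young).

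In the core, the alpha ring had 4 higher and 1 lower of 7 at both ages, with medians of 0.22 (old) and 0.11 (young). The alpha subunit called lower was not the same gene at both ages. Among genes of like level, 38.8% were called higher between the old groups and 38.7% between the young groups. With library totals alone the median of the ring between the young groups was -0.01, and its counts were 2 higher and 3 lower at both ages. Psma5, an alpha subunit, had 138, 153 and 141 CPM in old mice and 139.9, 143 and 142 CPM in young mice, against 95.7, 87.0 and 102 CPM in old IFE and 89.1, 89.9 and 101 CPM in young IFE. These groups did not overlap, and the log2 difference was 0.60 ± 0.06 at both ages (adjusted p = 1.34e-11 old and 1.31e-11 young, edgeR). The pseudogene Psma5-ps, listed in both tables, may share reads with it. Psma3 had 119, 116 and 112 CPM in old mice and 105, 106 and 107 CPM in young mice, against 90.9, 89.6 and 91.0 CPM in old IFE and 86.4, 87.3 and 88.6 CPM in young IFE (0.36 ± 0.05 old and 0.28 ± 0.05 young). Psma2 had 80.0, 82.6 and 79.9 CPM in old mice and 72.6, 77.4 and 85.1 CPM in young mice, against 65.8, 63.7 and 72.5 CPM in old IFE and 68.5, 68.8 and 72.3 CPM in young IFE (0.26 ± 0.06 old and 0.17 ± 0.06 young). Neither gene overlapped between settings, but the calls of Psma2 were lost with library totals alone (0.13 old and 0.05 young), and between the young groups also without young replicate 3 (adjusted p = 0.189) or young IFE replicate 1 (adjusted p = 0.0514). Psma6, the core subunit of highest FPKM, was the alpha subunit called lower between the young groups (-0.12 ± 0.04, adjusted p = 0.0122, edgeR), with 202, 182 and 192 CPM in young mice and 209, 212 and 207 CPM in young IFE. It was not called without young replicate 2 (adjusted p = 0.0847) or with DESeq2 (adjusted p = 0.0501).

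The catalytic subunits parted. Psmb5 was lower in vivo, with 27.9, 24.9 and 25.8 CPM in old mice and 22.5, 26.3 and 25.0 CPM in young mice, against 35.1, 33.4 and 34.2 CPM in old IFE and 31.3, 34.7 and 31.0 CPM in young IFE. The groups did not overlap (log2 -0.39 ± 0.09 at both ages, adjusted p = 0.000154 old and 0.000134 young, edgeR). Psmb6 had 83.6, 86.8 and 83.8 CPM in old mice and 82.5, 85.5 and 85.7 CPM in young mice, against 74.96, 73.0 and 69.7 CPM in old IFE and 72.6, 72.6 and 72.9 CPM in young IFE. It was higher in vivo by 0.22 ± 0.05 at both ages, a call that was lost with library totals alone (0.09 old and 0.10 young). Psmb7 had 0.11 ± 0.05 (old) and 0.02 ± 0.05 (young) and was not called.

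Of the beta subunits without catalytic activity, Psmb3 had 97.6, 109.5 and 103 CPM in old mice and 83.9, 86.6 and 76.4 CPM in young mice, against 100.6, 100.4 and 100.6 CPM in old IFE and 109, 109.4 and 116 CPM in young IFE. It was lower in vivo between the young groups (-0.44 ± 0.05, adjusted p = 4.79e-09) and not called between the old groups (0.04 ± 0.05, adjusted p = 0.514, edgeR), where the libraries overlapped. Psmb1 had 176, 184 and 179 CPM in old mice and 169, 167 and 180.5 CPM in young mice, against 196, 200.3 and 198 CPM in old IFE and 212, 216 and 219 CPM in young IFE. All mouse libraries were lower (-0.14 ± 0.04 old and -0.32 ± 0.04 young).

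**Figure D5:**
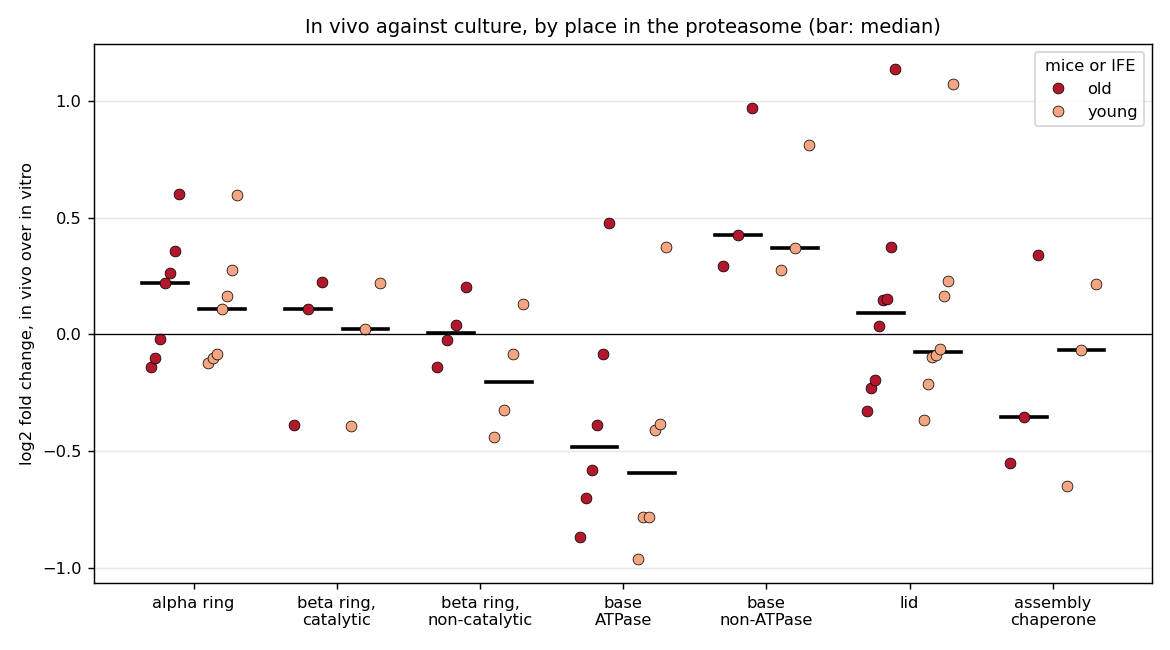
Log2 fold change of each tested member, in vivo over in vitro, by its place in the proteasome, old groups in dark red and young groups in light orange; bars are medians. The base ATPases have negative medians (-0.48 old, -0.60 young) and the other base members positive ones (0.42 old, 0.37 young).

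Of the partners, the inducible subunits were far higher in vivo, Psmb8 by log2 values of 2.77 ± 0.20 (old) and 4.19 ± 0.22 (young), Psmb9 by 3.75 ± 0.28 (old) and 6.17 ± 0.30 (young) and Psmb10 by 0.92 ± 0.35 (old) and 2.11 ± 0.35 (young). Nfe2l1 was lower in vivo by -0.93 ± 0.04 (old) and -0.83 ± 0.04 (young). Of the 5 core assembly factors, 4 were lower and 0 higher between the old groups, and 3 lower and 1 higher between the young groups. Over all genes 36.1% were called lower between the old groups and 36.9% between the young groups. The macrophage markers present in the in vitro table, 7 of 12, summed to 9.04 to 11.2 CPM in old IFE and 7.74 to 10.6 CPM in young IFE, far under the in vivo sums above, each scaled within its own setting, and their part in these differences was not tested.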

How the data were processed

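RNA of 12 libraries (4 groups of 3) was selected by poly-A tail. The authors deposited, per setting, raw counts per gene, a normalized signal and FPKM. Per the submitters' processing notes, the tools included HISAT2 2.0.5, featureCounts 1.5.0-p3 and DESeq2. The same notes name a human build, although the rows are mouse genes, so the build in use was not settled and no coordinates of the files are printed. The labels' protocols describe strand-specific and unstranded libraries without a choice, so overlapping and antisense genes are uncertain.

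The in vivo count table as used here lacked a count column for young replicate 3. The deposited signal equals counts over a library's size factor. Reads were recovered from it, whole to within 0.001 for 100.0% of values. In the 11 libraries with deposited counts, 100.0% of values matched. The recovered reads were used, which departs from the planned use of deposited counts alone. Without that library 4906 genes were called in vivo, against 5639 with it.

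Each setting was fitted on its 6 libraries, and contrasts across settings on all 12, with TMM scaling, filterByExpr and the quasi-likelihood F-test of edgeR 4.0.16 (R 4.3.3, robust, group only). P-values were adjusted by Benjamini-Hochberg over all genes tested (14096, 13118 and 14318), and a call is an adjusted p under 0.05. CPM, marker sums included, are scaled within a setting; for member levels compared between settings, all libraries were scaled together. Ratios of FPKM were compared by exact permutation. Alternatives were RLE factors, library totals, no filter, DESeq2 1.42.0, a test against a fold of 1.2, a replicate block, limma 3.58.1 on log2(FPKM + 0.1) and log2(FPKM + 1), the 6 libraries compared alone, and leaving out each library. The fit was tested on simulated data. The members and lists were chosen with earlier results of these data known. Members are named by rule: the catalytic subunits, up to 4 called rises and 4 called falls per class and comparison without overlap, the lowest p where none was called, the extremes of FPKM, and 7 partners. Psmd8, Psmd10, Psmc6 and Psmc3 in some comparisons, Psme4, Psmf1 and other partners were named after their values were seen. Experiments on human cells that the series' design text describes were not analysed here.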

Additional observations from a re-analysis of the deposited data

Results flagged for a closer look

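The change with age differed between the settings, by the contrast of the log2 fold change in vivo minus that in vitro (edgeR), for 5 members. These were Psmb3 (0.48), Psmc6 (0.30), Psmd14 (0.25), Psmc1 (0.20) and Psmb1 (0.18), all positive. It also differed for the inducible partners Psmb8 (-1.41) and Psmb9 (-2.42), both negative. The contrast called 17.5% of all genes tested, 9.10% in the positive direction. The calls of Psmc1 and Psmb1 were each lost in 7 of the 12 fits that left out 1 library.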

How the results depend on the processing

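Most alternatives left direction and call as reported. The test against a fold of 1.2 called 0 core and 0 regulatory members between old and young mice, against 1853 of all 14096 genes. In the difference between settings it called 1 core and 0 regulatory members, against 611 of 14318 genes. Between the young groups of the settings it called 4 core members, with 4 regulatory members higher and 7 lower, against 8950 of 14318 genes. Between the old groups it called 3 core and 10 regulatory members, against 8591 of 14318 genes. Without the filter on low counts 1 core member was called in the difference between settings, against 2425 of 20187 genes. Psmb9 was then called in vitro (adjusted p = 0.0368, edgeR), where 70 of 22035 genes were called. Leaving out 1 library gave 1 to 3 core and 2 to 5 regulatory members in the difference between settings, 5 without old IFE replicate 3, and 0 to 1 regulatory members in vitro. Between mice it gave 2 to 3 core and 6 to 10 regulatory members, the fewest without young replicate 3. It also gave 7 to 12 core and 13 to 16 regulatory members between the young groups of the settings, and 9 to 10 and 16 to 18 between the old groups. Where an in vivo library was left out, 4906 to 5252 of all genes were called between mice, of 14305 to 14440 tested. In the difference between settings 1946 to 2070 were then called, of 14632 to 14693 tested. Between the young groups the range was 10546 to 11012, and between the old groups 10319 to 10778.

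Some small values changed sign, and the cause was not tested. Psmb6 in vivo was -0.0001923 with library totals, -0.003881 without young replicate 1 and -0.005586 without old replicate 2 (up to 0.02506 without others). Psmb6 in vitro was -0.0004816 and -0.0004595 with limma on FPKM, and from -0.0209 to 0.0324 leaving out 1 library, with -1.795e-05 and -0.004917 between. Pomp in vitro was -0.002075 and -0.001815 with limma, and -0.03181, -0.01223 and -0.07631 without single libraries (up to 0.06737). Nfe2l1 in vitro was 0.02882 without old IFE replicate 2 (down to -0.0691 without others). Without old IFE replicate 3, Psmb10 in vitro was -0.08227 (up to 0.8173 without others) and the log2 ratio of Psmb10 to Psmb7 -0.03014 (up to 0.6898 without others). The labels do not say whether replicate numbers pair libraries. Deviations from the group mean had a correlation of -0.0274 to 0.0308 for like numbers and -0.0504 to 0.0368 for unlike ones. With so few libraries these values cannot decide it. With a replicate block the calls between the young groups were 8 core and 13 regulatory, between the old groups 6 and 16, and 2 and 9 between mice. Of all genes, 9614 of 14318 were then called between the young groups, 9301 of 14318 between the old groups and 5655 of 14096 between mice. The block ended the calls of Psma6 between the young groups (-0.1133, adjusted p = 0.116, edgeR) and of Psmb1 between the old groups (-0.08808, adjusted p = 0.196, edgeR). Depth does not allow a statement on Psmb11 and Psma8.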
